A study of Mus musculus with 14 samples.

Results

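Regions of acetylated lysine 27 of histone H3 (H3K27ac) that the authors' annotation places between genes and more than 50 kb from the nearest annotated transcription start site (TSS) were examined in Y1 cells, a mouse adrenocortical tumour line, given fibroblast growth factor 2 (FGF-2). They are the rows of the deposited region table that the authors' annotation calls distal intergenic, with a distance to the TSS above 50000 bases and a width under 3000 bases. This rule keeps 3107 of 40772 regions and uses no measured level. Another 84 regions were left out by width alone and 5845 regions over 50 kb from a TSS were left out because they carry another annotation, such as an intron. By RefSeq, 702 of the 3107 (22.6%) nevertheless overlapped a gene body, 533 of them that of an lncRNA (long noncoding RNA) gene and 149 that of a protein-coding gene. Median width was 610 bases and median distance 95.7 kb. Of the 3107 regions, 1688 lay upstream and 1419 downstream of the nearest TSS, 1651 lay between 50 and 100 kb away, 1057 between 100 and 250 kb, 266 between 250 and 500 kb and 133 farther still.

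Groups of Y1 cells were compared after 48 h without serum: cells given 10% fetal bovine serum with 10 ng/ml FGF-2, and cells given 10% serum alone, all collected at 5 h. H3K27ac was profiled by chromatin immunoprecipitation and sequencing in 2 libraries per group and polyadenylated RNA in 3 libraries per group. All cells are of a single line that has no normal adrenal counterpart in the series, and nothing in the labels says that libraries came from separate cultures, so the p-values measure the spread between these libraries, which may be technical. The comparison asks which distal intergenic regions gained or lost H3K27ac when FGF-2 was added to serum, and what the RNA of nearby genes did.

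H3K27ac is deposited by the acetyltransferases p300 and CBP and marks active promoters and enhancers, the DNA elements that raise transcription of a gene over a distance. Enhancers far from genes are bound by transcription factors specific to a cell type or a signal, and they can skip the nearest gene, so the nearest TSS is only a guide to the target. FGF-2 signals through receptor tyrosine kinases to RAS and the ERK kinases, which act on ETS factors and on AP-1, the dimer of FOS and JUN proteins. ERK signalling also turns on its own inhibitors, among them the Sprouty and SPRED proteins and the dual-specificity phosphatases.

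DNA of the regions was read only where a promoter of a RefSeq gene (build GRCm38.p6, the coordinates of mm10) falls in one, since only such windows of 300 bases, running from 250 bases before to 50 after a gene start, were used here. Of the 3107 distal regions, 72 (2.32%) overlapped 84 such windows, which belong to 71 genes, 61 of them lncRNA genes and 10 protein-coding. These 72 regions are ones that the authors' annotation places far from any TSS although RefSeq lists a start inside them. The median of their mean signals over 4 libraries was 43.7, against 22.9 for all 3107. With FGF-2, 11 of the 72 were called higher and 3 lower (5 and 2 without FGF-2 library 1, 8 and 1 without FGF-2 library 2, and 9 and 7 when serum library 2 was left out; the test and its background are given below with the counts over all regions). The windows below were chosen to show regions of both directions, each with the stated share of its bases inside the region. Capitals mark matches on either strand to the letters searched: AP-1 (TGANTCA), TEAD (CATTCC), the MYC E-box (CACGTG) and, for the GATA family of factors, AGATAAG.
4930471E19Rik: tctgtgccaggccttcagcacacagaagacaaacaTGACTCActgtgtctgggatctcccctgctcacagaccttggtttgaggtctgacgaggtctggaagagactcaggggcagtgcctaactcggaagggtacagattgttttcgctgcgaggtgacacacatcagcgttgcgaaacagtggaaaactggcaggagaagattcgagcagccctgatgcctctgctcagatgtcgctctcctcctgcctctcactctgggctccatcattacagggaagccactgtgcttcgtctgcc
Gm30530: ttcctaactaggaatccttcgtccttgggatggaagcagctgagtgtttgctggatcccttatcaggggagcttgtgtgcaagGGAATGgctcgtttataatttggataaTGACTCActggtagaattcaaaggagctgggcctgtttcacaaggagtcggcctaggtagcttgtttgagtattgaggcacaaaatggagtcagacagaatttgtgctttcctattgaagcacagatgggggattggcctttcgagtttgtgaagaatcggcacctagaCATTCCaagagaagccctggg
Gm36102: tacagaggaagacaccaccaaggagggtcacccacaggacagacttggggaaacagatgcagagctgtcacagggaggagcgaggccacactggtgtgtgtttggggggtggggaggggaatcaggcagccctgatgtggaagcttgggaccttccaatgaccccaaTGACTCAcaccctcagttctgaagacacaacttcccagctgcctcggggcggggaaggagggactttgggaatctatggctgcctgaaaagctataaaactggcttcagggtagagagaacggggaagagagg
Gm33570: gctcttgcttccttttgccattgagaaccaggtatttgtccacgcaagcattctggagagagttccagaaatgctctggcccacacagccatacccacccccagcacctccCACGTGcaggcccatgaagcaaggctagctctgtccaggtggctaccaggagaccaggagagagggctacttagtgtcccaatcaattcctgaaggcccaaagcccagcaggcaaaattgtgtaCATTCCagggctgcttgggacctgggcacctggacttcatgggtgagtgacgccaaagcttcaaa
Gm32492: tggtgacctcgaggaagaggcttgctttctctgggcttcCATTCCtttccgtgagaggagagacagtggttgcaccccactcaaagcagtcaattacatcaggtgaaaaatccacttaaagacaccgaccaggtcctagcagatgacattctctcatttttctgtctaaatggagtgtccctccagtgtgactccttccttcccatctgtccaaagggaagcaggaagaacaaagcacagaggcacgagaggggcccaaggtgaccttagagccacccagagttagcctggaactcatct
Gm33439: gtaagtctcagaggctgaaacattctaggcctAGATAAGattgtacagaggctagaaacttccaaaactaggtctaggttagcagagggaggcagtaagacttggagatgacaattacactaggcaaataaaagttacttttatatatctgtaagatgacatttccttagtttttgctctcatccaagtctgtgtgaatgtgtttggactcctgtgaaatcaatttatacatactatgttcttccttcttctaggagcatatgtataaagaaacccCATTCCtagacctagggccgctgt
The first lies at chr10:120636058-120636357 on the minus strand, with all 300 bases in a region that had a signal of 274 and 222 in the FGF-2 libraries, against 63.5 and 102 in the serum libraries. The window of Gm30530, at chr16:93193746-93194045 on the minus strand, is likewise inside a region with 184 and 104 with FGF-2 and 49.7 and 58.5 with serum alone. Gm36102 starts at chr1:92751894-92752193 on the plus strand, and its region had 39 and 37 with FGF-2 and 12.9 and 9.19 with serum alone. All 3 regions were called higher. Gm33570 lies at chr7:66581607-66581906 on the plus strand, with 214 bases inside a region of the Asb7 group described below, which had 60.9 and 49 with FGF-2, against 1.84 and 0.84 with serum alone. The last 2 windows are in regions called lower: Gm32492 at chr19:56668817-56669116 on the plus strand, with 9.51 and 2 with FGF-2 and 24.9 and 23.4 with serum alone, and Gm33439 at chr10:118746453-118746752 on the plus strand, with 17.1 and 10 with FGF-2 and 65.4 and 61.8 with serum alone. They share 229 and 116 bases with their regions. Letters were searched over all 300 bases of a window, so a match can lie outside the region, as the AGATAAG of Gm33439 does.

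AP-1 letters stood in 18 of the 84 windows (21.4%), against 7.81% of all 32851 RefSeq promoter windows, 11.7% of the 206 windows in intergenic regions within 50 kb of a TSS and 4.66% of the windows in promoter regions. By region, 6 of the 11 called higher had a match in an overlapping window, 0 of the 3 called lower and 9 of the 58 not called. Such a match can lie outside the region itself. Of the 15 regions with a match, 6 rose and 0 fell at an unadjusted limma p of 0.05. Without FGF-2 library 1, 2 of the 15 regions with a match were called higher. TEAD letters were in 20 windows (23.8%), against 14.7% of all RefSeq windows, 19.9% in nearer intergenic regions and 11.3% in promoter regions. By region they were in overlapping windows of 4 of the 11 called higher, 3 of the 3 called lower and 12 of the 58 not called. ETS letters (CCGGAAG) were in 10 windows (11.9%), against 8.86% of all RefSeq windows, 8.25% in nearer intergenic regions and 20.7% in promoter regions. A CRE (TGACGTCA) was in 0, against 1.79%, 0.485% and 3.52% in the same sets. Base composition differs between these sets: the windows in distal regions held a median of 5 CpG and those in promoter regions 23. A match is a description of letters and shows no binding, and the lncRNAs of the windows called higher or lower are not among the genes of the RNA count tables used here.

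The 4 H3K27ac libraries held 12447135 and 11840994 fragments with FGF-2 and 12856806 and 14156846 with serum alone, and 34.1% and 34.6% of fragments fell in the listed regions with FGF-2, against 35.3% and 28% with serum alone. Serum library 2 had an input of 110273836 fragments, where the other inputs had 12241177 to 15672630. RNA libraries held 6403095 to 12696426 counts in genes with FGF-2 and 5625004 to 9101089 with serum alone. The 6 adrenocortical markers summed to values between 2263 and 3748 CPM (counts scaled to a common library total with TMM factors) with FGF-2 and between 654 and 896 with serum alone. These sums do not describe each marker. Scarb1, 1 of the 6, stood at 247, 315 and 192 CPM with FGF-2, against 276, 241 and 209 with serum alone. In the longer adrenocortical list used below, RNA of 4 of 14 tested genes rose and of 4 fell. Among all tested genes 22.1% rose and 24.2% fell. Mc2r, the gene of the ACTH receptor and also 1 of the 6, stood at 0.195, 0.176 and 0 CPM with FGF-2, against 0, 0.213 and 0.166 with serum alone. Markers of fibroblasts and capsule summed to 2034 to 2909 CPM with FGF-2 and 2800 to 3501 with serum alone, with Col1a2 and Dcn at 0. Those of medulla (1.5 to 2.72 CPM with FGF-2 and 5.35 to 7.02 with serum alone, Th and Dbh at 0), endothelium (3.62 to 4.29 with FGF-2 and 4.78 to 8.19 with serum alone, Tek and Emcn at 0) and blood (5.65 to 7.51 with FGF-2 and 3.82 to 8.8 with serum alone, Adgre1 and Hba-a1 at 0) were low. The part of other cell types in the results was not tested.

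With FGF-2, H3K27ac rose at 718 of the 3107 distal intergenic regions (23.1%) and fell at 235 (7.56%). Across all 40772 regions 13% rose and 3.88% fell by the same test, limma on log2(signal + 4) with Benjamini-Hochberg adjusted p at 0.05. The signal is the authors' reads per region scaled to a common library size, with a floor of 1 read. At 639 of the regions that rose and 189 of those that fell the change was at least 1 on the log2 scale. Those that rose had median signals of 48.5 and 35 in the FGF-2 libraries, against 8.29 and 8.36 in the serum libraries, and those that fell had 13.3 and 10 with FGF-2, against 39.6 and 32.6 with serum alone. With 2 libraries against 2, the groups did not overlap at 62.5% of distal regions and 51.5% of all regions. The median log2 fold change over all 3107 was 0.17, against 0.10 over all regions. By the false discovery rates of the authors' deposited table, at 0.05, 485 distal regions rose (15.6%, against 8.34% of all regions) and 91 fell (2.93%, against 1.64%). Of these, 483 and 91 were among the 718 and 235.

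The number of calls depended on single libraries. Without FGF-2 library 1, 280 rose and 119 fell (9.01% and 3.83%, against 4.11% and 1.39% of all regions), and without FGF-2 library 2, 496 and 108 (16% and 3.48%, against 7.26% and 1.62%). Leaving out serum library 1 gave 670 and 123 (21.6% and 3.96%, against 15.7% and 1.72%), and leaving out serum library 2 gave 637 and 215 (20.5% and 6.92%, against 11.2% and 6.05%). Centring each library on its median gave 580 and 345 calls, so 62.7% of called distal regions rose in place of 75.3%, with the median of all regions at -0.06 in place of 0.10. Of all called regions, 57.3% then rose in place of 77%, so in the main fit gains made up a similar share in both sets. The edgeR quasi-likelihood test on the reads recovered from the signal called 576 higher and 256 lower, 69.2% higher, against 61.3% of all called regions.

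**Figure D1:**
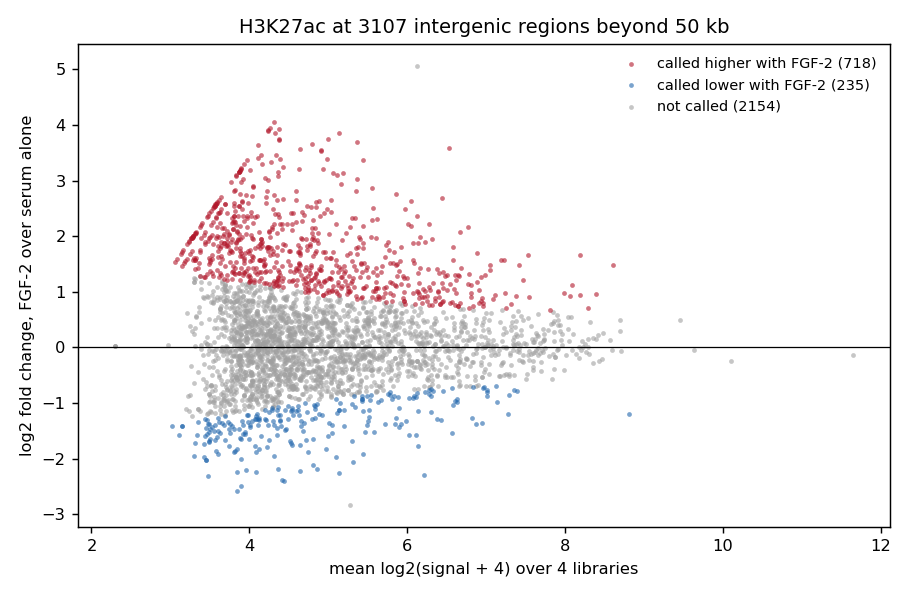
Each point is 1 of 3107 distal intergenic regions, with its mean log2(signal + 4) over 4 libraries on the x axis and its log2 fold change, FGF-2 over serum alone, on the y axis. Red points are the 718 called higher, blue the 235 called lower and grey the 2154 not called. The called gains reach 4.05 and the called losses -2.59.

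Distal intergenic regions were called more often than intergenic regions of the same width limit within 50 kb of a TSS, of which 15.9% rose and 5.32% fell (6792 regions), and more often than regions within 1 kb of a TSS, of which 2.69% rose and 1.39% fell (12484 regions). Promoter regions had higher signals, with a median of 119 and 130 with FGF-2 and 136 and 104 with serum alone, so the classes were also set side by side at matched signal. At a mean signal of 50 to 100, 29.5% of 414 distal regions rose, against 16.4% of 1108 nearer intergenic and 2.43% of 2346 promoter regions. At 100 and over the shares were 17.6%, 12.9% and 2.35%, and under 20 they were 20.5%, 16.9% and 4.64%. Without FGF-2 library 1 the distal shares were 11.6%, 4.81% and 5.99% in these 3 ranges. For falls, 8.7% of distal, 7.49% of nearer intergenic and 2.34% of promoter regions at 50 to 100 were called. Without serum library 1, 11.5% of promoter regions rose. Falls set the classes apart less under other settings: without serum library 2, 6.92% of distal, 6.67% of nearer intergenic and 6.21% of promoter regions fell, and 8.24%, 7.74% and 5.96% did by edgeR. The differences between classes were not tested.

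**Figure D2:**
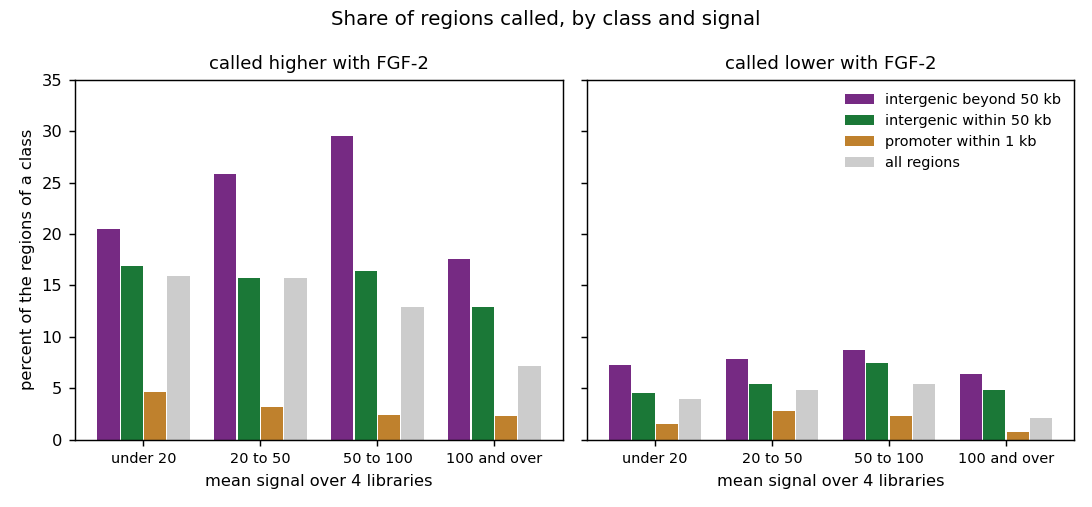
Bars give the percent of regions called higher (left) and lower (right) with FGF-2 in 4 ranges of mean signal, for intergenic regions beyond 50 kb, intergenic regions within 50 kb, promoter regions within 1 kb and all regions. In each range the distal bar is the tallest, at 17.6% to 29.5% on the left.

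Values of the whole class were also set side by side per library, where an exact permutation test of 2 against 2 cannot go below p = 0.333 and so cannot pass 0.05. Distal regions held 3.97% and 3.42% of all region signal in the FGF-2 libraries, against 3.21% and 3.56% in the serum libraries, and the groups overlapped (exact two-sided permutation test over 4 libraries, p = 0.667). Their median log2 signal minus that of promoter regions was -1.96 and -2.31 with FGF-2, against -2.48 and -2.16 with serum alone (exact permutation p = 0.667). Against nearer intergenic regions the differences were -0.0635 and -0.152 with FGF-2 and -0.242 and -0.143 with serum alone (exact permutation p = 0.667). Fewer distal regions were at the floor of 1 read with FGF-2, 28 and 45, than with serum alone, 152 and 118 (exact permutation p = 0.333, the smallest possible). These are 0.901% and 1.45% with FGF-2 and 4.89% and 3.8% with serum alone. All regions had the same direction, with 0.397% and 0.601% at the floor with FGF-2, against 2.05% and 1.62% with serum alone. A lower signal per region cannot be told apart here from fewer cells carrying the mark.

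Peaks that MACS2 called in each library, at a q of 0.01, showed where the regions were detected. All 3107 regions overlapped a peak in at least 2 libraries, 2603 and 2374 in the FGF-2 libraries and 2250 and 2263 in the serum libraries. A peak stood in all 4 libraries at 1320 distal regions (42.5%, against 62.7% of all regions). At 536 (17.3%, against 9.72%) both FGF-2 libraries had a peak and no serum library did, and at 285 (9.17%, against 5.14%) both serum libraries had one and no FGF-2 library did. These peaks come from the same 4 libraries as the signal.

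Shares of called regions were also taken by distance. Regions 50 to 100 kb away rose in 22.8% and fell in 6.48% of cases, those at 100 to 250 kb in 24.6% and 8.14%, those at 250 to 500 kb in 16.9% and 12%, and those beyond 500 kb in 27.8% and 7.52%. Of the 37 gains beyond 500 kb, 10 had B230303A05Rik and 9 had Grik2 as nearest gene, and without these genes 18 of the other 109 regions rose (16.5%). Without FGF-2 library 1, 14 of the 133 rose. The shares upstream and downstream of the TSS were 23.6% and 22.6% higher and 7.41% and 7.75% lower. Wider regions were called more often: 18.3% of those under 500 bases rose, 25.6% of those from 500 to 1000 and 26.9% of those from 1000 to 3000 bases. By chromosome the share that rose ran from 8.85% of 192 regions on chromosome 3, where 13.5% fell, to 39.4% of 175 on chromosome 8, where 3.43% fell. On chromosome 8, 69 regions rose and 6 fell, and without FGF-2 library 1, FGF-2 library 2 and serum library 1, 29 and 2, 52 and 2, and 71 and 2. Much of this came from a few loci. By nearest protein-coding gene, the 69 gains include 18 of 19 regions of Zfp469, 15 of 16 of Saraf and 12 of 13 of Dusp4. Without FGF-2 library 1 these were 11, 7 and 7. On chromosome 3, 17 rose and 26 fell, and without FGF-2 library 1, FGF-2 library 2 and serum library 1, 3 and 12, 9 and 9, and 12 and 14. None of these shares was tested.

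Among called regions with a mean signal of at least 20, those with the largest gains had almost no H3K27ac in serum alone, which follows in part from choosing them by fold change. A region 95.2 kb upstream of Egflam, which encodes the matrix protein pikachurin, had a signal of 104 and 57 with FGF-2, against 0.92 and 0.84 with serum alone, both at the floor (chr15:7493643-7494893). It was at least 61-fold higher when the serum group is set to a floor of 3 reads in total. Its fitted log2 fold change, which depends on the pseudocount at such levels, was 4.05 ± 0.41 (SE, limma adjusted p = 6.87e-20). Near Rassf8, a gene of the RAS association domain family, a region at chr6:145722273-145723522 had 69.4 and 73 with FGF-2, against 0.92 and 0.84 with serum alone, at least 54.1-fold higher. Regions near the lncRNA genes B930018H19Rik (105 and 44 with FGF-2) and 4930572O13Rik (56.1 and 57) also had 0.92 and 0.84 with serum alone, and were at least 56.4-fold and 42.9-fold higher.

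In other large gains at least 1 serum library was above that floor. The region of Otos, an inner ear protein gene, had 122 and 139 with FGF-2, against 4.6 and 5.85 with serum alone (log2 fold change 3.86 ± 0.34, limma adjusted p = 2.09e-25). One downstream of Tnfrsf19, which encodes a receptor of the tumour necrosis factor family, had 93.2 and 55 with FGF-2, against 0.92 and 2.51 with serum alone. A region 636 kb upstream of B230303A05Rik had 167 and 75 with FGF-2, against 3.68 and 5.85 with serum alone, and one near 4930578N18Rik had 160 and 129 with FGF-2, against 9.21 and 5.85 with serum alone. FGF-2 library 1 was the higher of its group in 7 of the 10 largest gains, which include a region of Asb7 and one of Zfpm1, and no serum library reached 10 in any of them. A still larger difference near 2010315B03Rik, 5.06 ± 1.46 on the log2 scale, was not called by limma (adjusted p = 0.241), although the authors' deposited table gives a false discovery rate of 0.0448: its signals were 641 and 249 with FGF-2, against 0.92 and 25.9 with serum alone.

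The 10 largest losses, chosen in the same way, spanned -2.41 to -1.97 on the log2 scale. The first was near Gm13498, with 4.75 and 6 with FGF-2, against 40.5 and 51.8 with serum alone (log2 fold change -2.41 ± 0.40, limma adjusted p = 1.05e-07). Near Nfil3, a basic leucine zipper repressor, a region had 9.51 and 15 with FGF-2, against 70 and 75.2 with serum alone. The region of Prox1, a homeodomain factor, had 16.2 and 5 with FGF-2, against 57.1 and 51.8 with serum alone, and that of Map3k7, the TAK1 kinase gene, had 3.8 and 8 with FGF-2, against 51.6 and 30.9. In these 4 both FGF-2 libraries were above the floor. Near Nt5c1b and 1700028M03Rik, FGF-2 library 2 was at the floor of 1 while FGF-2 library 1 had 13.3 and 22.8, and the authors' deposited table gives false discovery rates of 0.25 and 0.544 for these regions. The call near 1700028M03Rik was lost without FGF-2 library 2 and with DESeq2, and that near Nt5c1b with DESeq2.

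**Figure D3:**
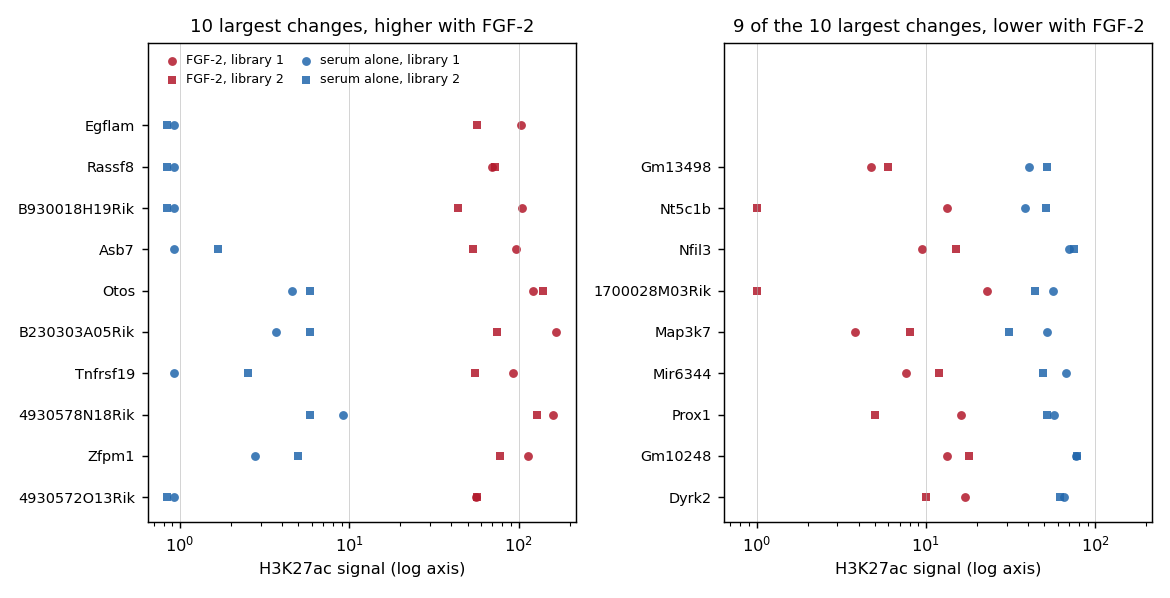
Signal in each library, on a log axis, for the 10 regions with the largest increase (left) and 9 of the 10 with the largest decrease (right), named by the nearest gene. FGF-2 libraries are red and serum libraries blue; 4 regions on the left have both serum libraries at the floor of 1 read, and 2 regions on the right have FGF-2 library 2 at the floor.

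None of the 5 regions with the highest signal was called higher with all libraries. One 69.1 kb downstream of Sspn had 3141 and 2973 with FGF-2, against 3991 and 2786 with serum alone, and one near Ccdc66 had 783 and 770 with FGF-2, against 919 and 698. In these the groups overlapped, and limma did not call them (adjusted p = 0.796 and 0.943), although the Sspn region was called with TMM-scaled libraries and without serum library 2. Another near Sspn had 977 and 1040 with FGF-2, against 1312 and 1074, and was not called (adjusted p = 0.579), though it was called lower by edgeR and DESeq2 on recovered reads, with centred or TMM-scaled libraries and when serum library 2 was left out. A further one fell, with 256 and 334 with FGF-2, against 799 and 563 with serum alone, a call lost without FGF-2 library 1. The Sspn regions sit on raised background: MACS2 gave a local background of 42.5, 47.9 and 41 fragments for these 3 of high signal, where the median over all regions was 1.97. In all, 20 distal regions had a background over 3 times the median, 7 of them near Sspn on chromosome 6, and without the 20, 712 regions rose and 232 fell. The last of the 5, near 4933411E08Rik, had 1004 and 690 with FGF-2, against 464 and 744 with serum alone, at a background of 10.5, and was called higher only without serum library 2.

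Distal regions came in groups whose called members mostly moved the same way. When regions less than 12.5 kb apart were joined, 2264 of the 3107 fell into 748 groups of 2 or more. Of 211 groups with at least 2 called regions, 165 held only gains, 37 only losses and 9 both. Neighbouring regions share chromatin and are not independent, so these counts are a description.

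The group with most called regions lay 87 to 119 kb downstream of the TSS of Asb7, a substrate receptor of a cullin ubiquitin ligase. All 17 of its regions rose, over chr7:66569631-66601947, with log2 fold changes of 1.58 to 3.86. Their signals summed to 921 and 606 with FGF-2, against 35.9 and 28.4 with serum alone. In the serum libraries no region of the group was above 4.6 and 4.18, while the lowest FGF-2 values were 20 and 12. Between 16 and 17 regions were called without each library in turn, by edgeR and by DESeq2, and 16 in the authors' deposited table. The plus-strand window of the lncRNA gene Gm33570 printed above lies in this group. Asb7 RNA stood at 32.8, 30.4 and 31.3 CPM with FGF-2, against 17.3, 19.9 and 17.4 with serum alone (edgeR log2 fold change 0.79 ± 0.12, adjusted p = 0.000606), with no overlap between the groups. By the same test, 22.1% of all 10374 tested genes rose.

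Upstream of Zfpm1, which encodes the GATA cofactor FOG1, 13 of 14 regions rose (8 without FGF-2 library 1), with log2 fold changes of 1.14 to 3.66 over all 14. A region of 2904 bases at chr8:122171256-122174159 had 360 and 277 with FGF-2, against 21.2 and 24.2 with serum alone (log2 fold change 3.58 ± 0.28, limma adjusted p = 1.64e-34), the smallest p of the named regions. Sums over the 14 were 1251 and 982 with FGF-2, against 247 and 224 with serum alone. Zfpm1 RNA rose to 122, 114 and 87.1 CPM with FGF-2, against 38.6, 45.3 and 49.1 with serum alone. RefSeq places these regions, with those assigned to Banp, inside the body of the protein-coding gene Zfp469, where 18 of 19 rose (11 without FGF-2 library 1).

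Egflam had 11 distal regions, 8 of which rose, and their sums were 768 and 405 with FGF-2, against 51.6 and 107 with serum alone. Egflam RNA was under 1 CPM in all 6 libraries and was not tested. All 5 regions of Tnfrsf19 and all 5 of Rassf8 rose. Tnfrsf19 RNA stood at 308, 310 and 348 CPM with FGF-2, against 58.1, 48.8 and 76.7 with serum alone, and Rassf8 RNA at 251, 234 and 304 CPM with FGF-2, against 41.5, 49.9 and 78.5. Ncs1, a neuronal calcium sensor gene, had 4 regions that all rose, with sums of 557 and 390 with FGF-2, against 74.6 and 94.4, and RNA of 429, 393 and 459 CPM with FGF-2, against 83.2, 100 and 123. For Nrn1, the gene of the neurite growth protein neuritin, 8 of 12 regions rose (4 without FGF-2 library 1) and RNA stood at 900, 995 and 1312 CPM with FGF-2, against 260, 262 and 353. RNA groups of Tnfrsf19, Rassf8, Ncs1 and Nrn1 did not overlap. These genes were named in part because RNA was called in the direction of the region, and 22.1% of all 10374 tested genes rose.

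Mir6344, a microRNA gene, had 29 regions over chr1:81660983-82200916, the most of any nearest gene, with losses but no gains called. These regions share a nearest TSS and are not a single group of regions joined at 12.5 kb. By limma 0 rose and 14 fell (0 and 22 at an unadjusted p of 0.05, 0 and 14 by edgeR and 0 and 8 by DESeq2), with log2 fold changes of -2.18 to -0.88 among the 14. Without FGF-2 library 2, serum library 1 and serum library 2, 8, 8 and 9 fell. Sums over the 29 were 416 and 392 with FGF-2, against 974 and 837 with serum alone. The mature sequence of this microRNA from RefSeq, with its seed (bases 2 to 8) in capitals, identifies the gene that names this set of regions.
mmu-miR-6344: gUUUUCCUacuguuucccuuuu
Polyadenylated RNA does not measure a mature microRNA, and Mir6344 is listed at 0 counts in all 6 libraries. By RefSeq the nearest protein-coding gene of 12 of these regions is Irs1, which encodes insulin receptor substrate 1, and of the other 17 Nyap2. All 12 regions of Irs1 had a negative log2 fold change and 8 fell, with sums of 106 and 97 with FGF-2, against 348 and 300 with serum alone. Irs1 counts were too low to test, at 0 CPM in each FGF-2 library and 0.0956, 0.426 and 0.166 CPM in the serum libraries. Without FGF-2 library 2, serum library 1 and serum library 2, 4, 3 and 4 of the 12 fell.

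**Figure D4:**
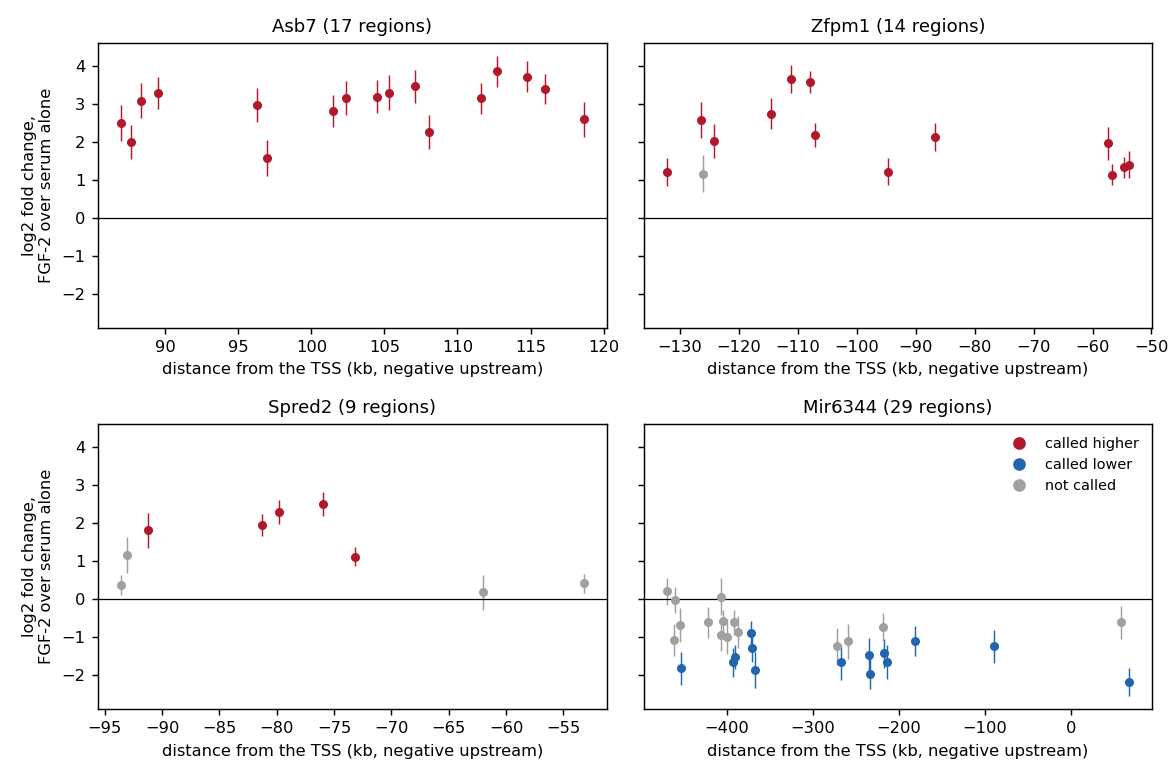
Log2 fold change, FGF-2 over serum alone, of each distal intergenic region against its distance from the TSS in kb, for Asb7, Zfpm1, Spred2 and Mir6344; bars are limma standard errors. All 17 Asb7 regions and 13 of 14 Zfpm1 regions are red (called higher), the 5 called Spred2 regions lie between 73 and 92 kb upstream, and 14 of 29 Mir6344 regions are blue (called lower).

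Many called regions have a noncoding gene as the nearest TSS, so the nearest RefSeq protein-coding gene was also looked up, a step added after the values were seen. It was the gene of the region table for 1759 of the 3107 regions. Near Sox9, a developmental transcription factor gene, 6 of 6 regions rose (3 without FGF-2 library 1), which the table assigns to 2610035D17Rik. They summed to 323 and 193 with FGF-2, against 31.3 and 47.6 with serum alone, and lay 212 to 228 kb from the gene body. Sox9 RNA stood at 159, 151 and 225 CPM with FGF-2, against 5.35, 5 and 10.8 with serum alone (edgeR log2 fold change 4.72 ± 0.31, adjusted p = 3.36e-05). Near Runx1, a RUNX family factor gene, 11 of 17 rose (2 without FGF-2 library 1), with RNA of 116, 89.9 and 118 CPM with FGF-2, against 19.7, 28.9 and 43.7. These include part of the 19 regions the table gives to 1810053B23Rik, of which 16 rose (3 without FGF-2 library 1). The other 12 of those 19 have Setd4 as the nearest protein-coding gene, and 10 of the 12 rose (2 without FGF-2 library 1). Setd4 RNA stood at 5.56, 4.15 and 5.07 CPM with FGF-2, against 5.74, 5 and 5.31 with serum alone (edgeR adjusted p = 0.647). Near Jarid2, a partner of Polycomb repressive complex 2, 7 of 11 rose, and RNA stood at 110, 110 and 184 CPM with FGF-2, against 22.6, 20.4 and 15.1. Near Sgk1, a kinase gene, 6 of 11 rose (3 without either FGF-2 library), and RNA stood at 599, 632 and 1018 CPM with FGF-2, against 80.7, 72.9 and 150. RNA of Sox9, Runx1, Jarid2 and Sgk1, chosen after their values were seen, did not overlap between the groups. Of all 10374 tested genes, 22.1% rose. Near Mc2r, 6 of 7 regions had gains called (1 without FGF-2 library 1 and 3 without FGF-2 library 2), with sums of 541 and 518 with FGF-2, against 249 and 242 with serum alone. Mc2r counts, given above as CPM, were too low to test.

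Gains also stood near protein-coding genes whose RNA did not pass the test or was lower. Of all 24 protein-coding genes with at least 6 gains and no loss, RNA was higher for 12, did not pass for 6, was lower for 0 and was not tested for 6. Among all 10374 tested genes 22.1% rose and 24.2% fell. Near Etnk1, an ethanolamine kinase gene, 6 of 6 regions rose (4 without FGF-2 library 1), with sums of 440 and 208 with FGF-2, against 33.1 and 59.3 with serum alone. Etnk1 RNA stood at 226, 202 and 190 CPM with FGF-2, against 184, 202 and 242 with serum alone (edgeR adjusted p = 0.91). Gains were called at 7 of 8 regions near Btbd3 (2 without FGF-2 library 1), at 8 of 12 near Snx13 (1 without FGF-2 library 1) and at 9 of 11 near F13a1 (4 without FGF-2 library 1), some of which the table gives to Nrn1. RNA of these 3 genes did not pass (edgeR adjusted p = 0.584, 0.826 and 0.231). Near Msrb3, a methionine sulfoxide reductase gene, 4 of 7 regions rose (1 without FGF-2 library 1), while its RNA fell to 113, 112 and 109 CPM with FGF-2, against 223, 197 and 178 with serum alone (edgeR log2 fold change -0.84 ± 0.11, adjusted p = 0.000274). These genes were chosen after their values were seen.

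Genes known as ERK feedback regulators and ETS targets are the first of 7 lists described by counts. Of its 15 genes, 5 were the nearest gene of a distal region: Dusp4, Spred1, Spred2, Spry2 and Spry4. Their 22 regions had 12 gains and 0 losses (15 and 0 at an unadjusted limma p of 0.05), where 13% of all regions rose, with a median log2 fold change of 1.25, against 0.10 over all regions. By edgeR 12 rose, by DESeq2 5 rose, by the authors' deposited table there were 10, and without FGF-2 library 1, 5 rose. Near Spred2, which inhibits the RAS-ERK pathway, 5 of 9 regions rose (3 without FGF-2 library 1). The region 75.9 kb upstream had 119 and 101 with FGF-2, against 21.2 and 11.7 with serum alone (log2 fold change 2.51 ± 0.32, limma adjusted p = 5.57e-13), and that 79.8 kb upstream had 104 and 96 with FGF-2, against 11.1 and 25.9. Spred2 RNA stood at 391, 322 and 340 CPM with FGF-2, against 54.3, 58 and 70.2 with serum alone.

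Near Dusp4, a nuclear phosphatase of MAP kinases, 3 of 4 regions rose (1 without FGF-2 library 1 and 2 without FGF-2 library 2). With the protein-coding assignment, which adds regions of B930018H19Rik, 12 of 13 rose (7 without FGF-2 library 1), with sums of 1327 and 1071 with FGF-2, against 396 and 457 with serum alone. Spry2, a Sprouty inhibitor of receptor tyrosine kinase signalling, had 3 of 6 regions that rose (1 without FGF-2 library 1, 2 without FGF-2 library 2 and 2 without serum library 1), and sums of 295 and 256 with FGF-2, against 159 and 166 with serum alone. With the protein-coding assignment, 9 of 14 regions of Spry2 rose and 1 fell (4 and 0 without FGF-2 library 1), and 5 of 10 regions of Spred2 rose. Spry4 had 2 regions, with log2 fold changes of 0.98 and 1.37, of which 1 rose (0 without FGF-2 library 1), and the single region of Spred1 had 249 and 183 with FGF-2, against 198 and 171, and was not called.

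The other lists are described in the same way, where 13% of all regions rose and 3.88% fell. Of 25 regions near chromatin and cell cycle factors 9 rose (36%) and 1 fell (4%; 2 and 0 without FGF-2 library 1, 7 and 0 without FGF-2 library 2, and 9 and 0, or 9 and 3, when serum library 1 or 2 was left out). Near Runx2, a RUNX factor of bone, 4 of 6 rose (2 without FGF-2 library 1), and a region 181 kb downstream of the TSS had 41.8 and 50 with FGF-2, against 11.1 and 6.69 with serum alone. RefSeq places all 6 regions inside the body of Runx2. Near Tead1, a DNA-binding partner of YAP, a region had 82.7 and 100 with FGF-2, against 217 and 132, and fell, while Tead1 RNA rose to 457, 477 and 454 CPM with FGF-2, against 217, 204 and 254. This Tead1 call was lost when either FGF-2 library or serum library 1 was left out. Of 20 regions near adhesion and guidance genes 2 rose (10%) and 3 fell (15%; 0 and 1 without FGF-2 library 1, 1 and 1 without serum library 1, 1 and 3 without FGF-2 library 2). The 3 that fell and 1 of the gains lay upstream of Sema3a, which encodes a repulsive guidance ligand, so regions of that gene moved in opposite directions.

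Of 8 regions near the immediate-early factors Klf4, Klf6 and Klf10, 0 rose and 0 fell by limma (1 and 0 at an unadjusted p of 0.05), and 0 by edgeR and DESeq2 on recovered reads and in the authors' deposited table (1 rose without serum library 2). Of 9 regions near secreted ligand genes 1 rose (11.1%) and 2 fell (22.2%). The gain was near Cyr61, a matricellular ligand gene (154 and 143 with FGF-2, against 53.4 and 62.7 with serum alone), and the losses near Bmp2 (65.6 and 110 with FGF-2, against 180 and 111) and Tgfa (12.4 and 2 with FGF-2, against 27.6 and 17.6). Those 2 losses were not called in the authors' deposited table, with false discovery rates of 0.151 and 0.206, and the list had 1 and 0 called regions by DESeq2. Left-out libraries gave 0 and 1 without FGF-2 library 1, 1 and 0 without FGF-2 library 2 and 3 and 0 without serum library 1. Of 6 regions near adrenocortical genes 2 rose (33.3%), both near Scarb1, the receptor that takes up cholesterol from high-density lipoprotein. The stronger had 125 and 103 with FGF-2, against 46 and 34.3 with serum alone, and the weaker, with 43.7 and 28 against 10.1 and 21.7, was lost without FGF-2 library 1, FGF-2 library 2 or serum library 1. Scarb1 RNA did not pass (edgeR adjusted p = 0.823). The list's other gene with distal regions was Cited2. Of the 6 regions, 2 rose and 2 fell at an unadjusted limma p of 0.05. By nearest protein-coding gene, 6 of 8 regions of Scarb1 rose, and all 8 had a positive log2 fold change. Their sums were 978 and 809 with FGF-2, against 374 and 357 with serum alone. By the same assignment, 2 of 16 regions of Cited2 rose and 6 fell (0 and 0 in the authors' deposited table). Of 8 regions near BMP and SMAD genes 1 fell (12.5%), near Smad6, an inhibitor of BMP signalling, with 39.9 and 59 with FGF-2, against 147 and 88.6 with serum alone, a call lost without FGF-2 library 1 (2 of the list fell without serum library 2). At an unadjusted limma p of 0.05, 0 rose and 3 fell, and 0 rose by edgeR and DESeq2. Smad6 RNA fell to 2.34, 5.56 and 1.99 CPM with FGF-2, against 68.9, 59.3 and 33.5 with serum alone (edgeR log2 fold change -3.94 ± 0.42, adjusted p = 0.000465).

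RNA of the nearest genes more often had the direction of the H3K27ac call than the opposite one. The 3107 regions have 1051 nearest genes in the authors' table, and 525 of these had enough counts to be tested with edgeR. RNA of 168 (32%) rose and of 121 (23%) fell with FGF-2, where 22.1% of all 10374 tested genes rose and 24.2% fell. At 358 regions that rose and have a tested gene, RNA was higher for 211 (58.9%) and lower for 26 (7.26%). At 113 regions that fell, RNA was higher for 23 (20.4%) and lower for 44 (38.9%). At 1075 regions not called, RNA was higher for 305 (28.4%) and lower for 274 (25.5%). Regions of a gene share its RNA value, so the genes were also counted. Of 129 genes with only gains 66 rose and 13 fell in RNA, of 66 genes with only losses 13 rose and 26 fell, and of 318 with no called region 87 rose and 78 fell.

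**Figure D5:**
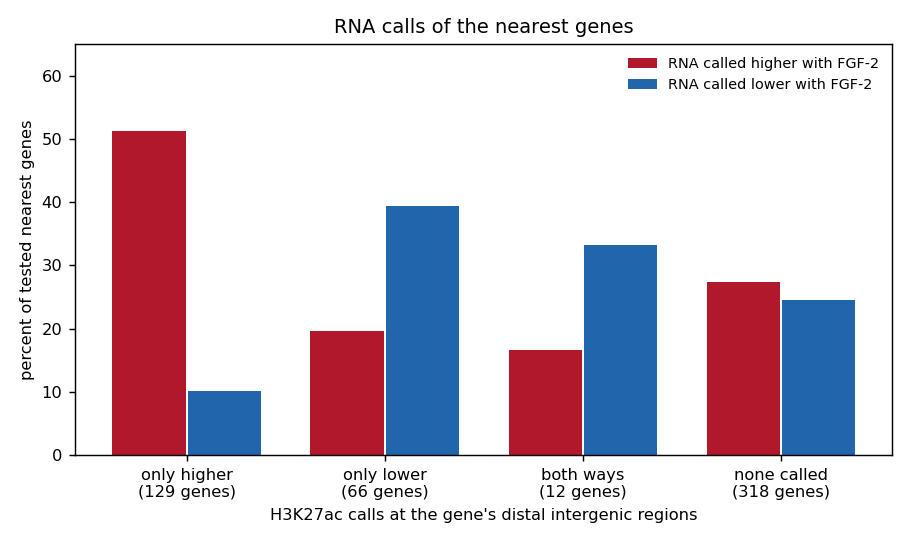
Percent of tested nearest genes whose RNA was called higher (red) or lower (blue) with FGF-2, by the H3K27ac calls at their distal intergenic regions. Genes with only gains had 51.2% higher and 10.1% lower, those with only losses 19.7% and 39.4%, and those with none called 27.4% and 24.5%.

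The split of RNA calls depends on scaling. Scaled by library totals alone, the 10374 tested genes had a median log2 fold change of -0.36 in place of -0.02, 110 nearest genes rose and 205 fell, and RNA at the 358 regions that rose was higher for 51.7% and lower for 14%. At the 113 that fell it was then higher for 13.3% and lower for 58.4%, against 19% and 43.8% at uncalled regions. With the nearest protein-coding gene of RefSeq, 474 regions that rose have a tested gene, with RNA higher for 55.5% and lower for 8.65%, and 136 that fell, with RNA higher for 11.8% and lower for 43.4%. The same shares at nearer intergenic regions, by the table's genes, were 60% and 9.05% of 663 that rose, and 16.9% and 38.5% of 195 that fell. At promoter regions that fell, RNA was lower for 68.5% of 111. The difference between these classes was not tested. Beyond 250 kb only 40 regions that rose and 14 that fell have a tested gene, and RNA was higher for 45% and 57.1% of them.

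Some genes went the other way. Sspn RNA, for sarcospan of the dystrophin complex, stood at 808, 784 and 670 CPM with FGF-2, against 2496, 2629 and 2178 with serum alone. A region near it had 123 and 77 with FGF-2, against 0.92 and 24.2, but on a background of 37.5, and this gain was not called in the authors' deposited table (false discovery rate 0.315) or by edgeR and DESeq2 on recovered reads. Tmem170b RNA rose to 56.9, 55.2 and 55.6 CPM with FGF-2, against 33.3, 31.6 and 30.2, while a region 64.7 kb downstream fell to 4.75 and 1 with FGF-2, against 29.5 and 25.1 with serum alone. For Tenm4, a teneurin gene, a region 317 kb upstream had 75.1 and 66 with FGF-2, against 23 and 20.9, and RNA fell to 3.41, 2.91 and 2.53 CPM with FGF-2, against 10.1, 9.9 and 7.47. A region near Lrig2 fell to 46.6 and 55 with FGF-2, against 146 and 119, and its RNA rose to 64.2, 59.8 and 59 CPM with FGF-2, against 34.9, 44 and 48.8. The Lrig2 region was not called without FGF-2 library 1.

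The 5 genes with most distal regions include Mir6344, given above, and 1810053B23Rik. Tars, a threonyl-tRNA synthetase gene, had 26 regions, of which 2 rose and 3 fell (0 and 4 without FGF-2 library 1, 1 and 0 without FGF-2 library 2 and 3 and 0 without serum library 1), and summed signals of 1252 and 1026 with FGF-2, against 1153 and 945 with serum alone. Hif1a, the hypoxia-inducible factor gene, had 19, of which 1 rose and 2 fell (1 and 0 without either FGF-2 library, 2 and 1 without serum library 1, 1 and 1 without serum library 2), with sums of 1312 and 1190 with FGF-2, against 1319 and 1183. RNA of neither gene passed (edgeR adjusted p = 0.117 and 0.628). Outside these 5, Plpp3, a lipid phosphate phosphatase gene, had 10 of 17 regions that rose (4 without FGF-2 library 1), and RNA of 350, 633 and 351 CPM with FGF-2, against 195, 113 and 174. Ttll7 had 19 regions, of which 2 fell (0 without FGF-2 library 1 and 1 without FGF-2 library 2 or serum library 1).

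At the edges of the rule, a region 50.1 kb from the TSS of Lif was just inside by distance and had 101 and 73 with FGF-2, against 67.2 and 43.5 with serum alone. A region near Ednra, just outside, had 23.8 and 22 with FGF-2, against 11.1 and 10.9. By width, a region of 2998 bases near Gm20750 was inside, with 166 and 161 with FGF-2, against 220 and 213, and one of 3001 bases near Bcor outside, with 218 and 258 with FGF-2, against 262 and 197.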

How the data were processed

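H3K27ac ChIP-seq (2 libraries per group) and RNA-seq (3 per group) of Y1 cells were analysed. Regions, members and gene lists were chosen with earlier results of these data known. Per the submitters' processing notes, tools were STAR 2.5.2a, SAMtools 1.1, bedtools 2.15.0, MACS2 2.2.6, HTSeq 0.10.0, DiffBind, ChIPseeker and DESeq2, with build mm10. Not given in the sources used here: the gene annotation, the strand setting of the counting, DiffBind's merging rule and its input handling. Without a known strand setting, reads of a gene and its antisense partner cannot be told apart.

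The signal per region was deposited by the authors as reads with a floor of 1, times a factor per library. Whole reads were recovered for 100% of values within 0.1 read. The region table also holds the authors' deposited log2 fold change and p-value with false discovery rate, printed only where the authors' table is named. Other fold changes and adjusted p-values are fits made here. Per the file headers, MACS2 peaks of each library against its own input give a fold enrichment ratio over local background, a pileup signal and a −log10 q, at a q of 0.01. RNA counts per gene were deposited by the authors, and 37% to 43.2% of reads lay in rows that name no gene and were left out.

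Log2(signal + 4) was fitted over all 40772 regions with limma 3.58.1 (trend, robust), and RNA counts with edgeR 4.0.16 quasi-likelihood tests (TMM, filterByExpr), in R 4.3.3, each with Benjamini-Hochberg adjustment over all features at 0.05. DESeq2 1.42.0, other scalings, pseudocounts, filters, a replicate block and left-out libraries were alternatives. Both fits were tested on simulated data. Replicate numbers were not used to pair the samples in the main fits (values are in the part on processing). Replicates of a group differed by more than counting error (chi-square per degree of freedom 2.54 with FGF-2 and 2.47 with serum alone). The floor of 3 reads covers counting error only. Tables and figures were made with Python 3.11.15, pandas 2.3.3, numpy 2.4.6 and matplotlib 3.10.9.

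Named regions were the 10 largest called increases and 10 largest decreases with separate groups and a mean signal of at least 20 (1 per nearest gene), the 5 of highest signal, the 5 genes with most regions, up to 2 each way per list by limma p, the 6 genes of smallest region p among those with H3K27ac and RNA called the same way, up to 4 with opposite ways, and the regions nearest the thresholds. Of the 10 largest decreases, 1 is not reported here. Groups by protein-coding gene, regions counted per nearest gene and other regions outside this rule were chosen after their values were seen. Sequences centred on the regions had been planned, and RefSeq promoter windows were used in their place because no genome was used here.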

Additional observations from a re-analysis of the deposited data

How the results depend on the processing

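The counts of distal regions that rose (718) and fell (235) became 425 and 119 among regions with a mean signal of at least 20, where fewer regions were tested, 349 and 102 with DESeq2 on recovered reads, and 542 and 119 at an adjusted p of 0.01. The authors' deposited table called 91 lower. Leaving out each library gave 280 to 670 higher and 108 to 215 lower. Over all regions 6878 were called, and 4112, 3260, 4069 and 4411 with the mean signal filter, DESeq2, the authors' false discovery rate and an adjusted p of 0.01, and 2244 to 7097 without each library. Centring on the library median moved the median log2 fold change of distal regions to 0.00, against 0.17. With RNA scaled by library totals 110 nearest genes rose and 205 fell, against 168 and 121, and among genes of regions over 100 kb away, where fewer genes are counted, 63 and 56. Except where the alternative's construction is named, the cause was not tested. The 3 differences between libraries kept their sign, and pseudocounts of 1 and 16 kept both counts within 1.5 times. In all 13 settings compared, 237 regions were called higher and 35 lower. Of 48 named regions called, 32 were called in all 11 settings and 0 changed sign. Chosen after seeing the data, the fit without regions at the floor gave 517 and 182, and edgeR scaled by library totals 575 and 250.

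Deviations of same-numbered libraries from their group means had a correlation of -0.262 for H3K27ac, and of -0.125, 0.054 and 0.387 for RNA. With 2 H3K27ac libraries per group both pairs give the same value. These values cannot decide whether the numbers pair the samples, and the main fits did not pair them. With a replicate block 618 distal regions rose and 170 fell, 5298 of all regions were called, and 173 nearest genes rose and 127 fell in RNA. The crossed block, added after seeing the data, gave 788 and 303. With 2 libraries per group, leaving out FGF-2 library 1 lowers the count of gains most (to 280) and leaving out FGF-2 library 2 that of losses (to 108), and regions at the floor of 1 read have fold changes set by the pseudocount.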
